A study of Mus musculus with 2 samples.

Results

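The vacuolar proton pump (V-ATPase) is described here through the genes of its membrane sector V0 and of its accessory subunits, compared between CD4+ T cells that lack Lamtor1 (KO) and wild-type (WT) CD4+ T cells of the mouse strain C57BL/6J. The genes were chosen by name, as all 10 of Atp6v0a1, Atp6v0a2, Tcirg1, Atp6v0b, Atp6v0c, Atp6v0d1, Atp6v0e, Atp6v0e2, Atp6ap1 and Atp6ap2. They had 11 probes on the array, and 9 of the 10 genes were measured, among 14879 measured genes and transcripts. A gene counted as measured when, on both arrays, its probe stood well above background in the same RNA, KO or WT.

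Naive CD4+CD62L+ cells were sorted from spleen and stimulated through CD3 and CD28 for 5 days, with IL-2 at 50 ng/ml and human TGFβ at 1 ng/ml in both genotypes. How Lamtor1 was deleted, in which cells, and the age and number of mice are not given in the sources used here. The extraction protocol in the labels names naive cells, so whether the RNA was taken before or after culture is not settled by the labels. There was 1 RNA extract per genotype, hybridised together on 2 two-colour arrays, with KO in Cy5 on one and in Cy3 on the other. The arrays therefore repeat the labelling and hybridisation only. They are counted as 1 replicate, no test was possible, and ± gives the technical SD between the arrays.

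The V-ATPase is a rotary pump. Its cytosolic V1 sector hydrolyses ATP, and this turns a ring of proteolipid subunits in the membrane-embedded V0 sector past subunit a, so that protons pass into lysosomes, endosomes or the Golgi lumen. Subunit a exists as isoforms that differ in where the pump resides. On the lysosome the pump also contacts Ragulator, the complex to which Lamtor1 belongs, in the sensing of amino acids by mTORC1. Many lysosomal genes, pump subunits included, are targets of the TFEB family of transcription factors, which bind E-box sequences with the core CACGTG.

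Promoter sequence was available for 9 of the 10 genes, in 13 windows of RefSeq (build GRCm38.p6), each reaching from 250 bases before a transcript start to 50 after it. The core CACGTG was present in the windows of 3 genes, Atp6v0b, Atp6v0d1 and Atp6v0e, which is 3 of 13 windows against 7.15% of all 32851 windows. The longer TCACGTGA, which contains that core, was in 2 of the 13 (Atp6v0d1 and Atp6v0e) against 0.974% of all. The variant TCATGTGA was in 1 window, of Atp6v0c, against 0.986%. All 3 motifs were searched on both strands, and a match is a description of letters, not of a bound site. The 3 windows with the core are shown because they place it close to the start, and that of Atp6v0a1 because this gene had the highest ratio. Each stretch runs 5′ to 3′ on the gene's strand from 120 bases before the start to 30 after it, with CACGTG in capitals.
Atp6v0d1 (chr8:105566035-105566184, minus strand): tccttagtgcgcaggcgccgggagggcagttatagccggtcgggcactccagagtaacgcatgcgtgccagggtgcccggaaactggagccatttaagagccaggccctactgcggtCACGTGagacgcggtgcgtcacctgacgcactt
Atp6v0b (chr4:117887300-117887449, minus strand): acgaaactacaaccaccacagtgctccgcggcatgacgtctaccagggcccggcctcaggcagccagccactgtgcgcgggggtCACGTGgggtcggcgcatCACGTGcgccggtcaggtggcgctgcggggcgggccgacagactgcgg
Atp6v0e (chr17:26676276-26676425, plus strand): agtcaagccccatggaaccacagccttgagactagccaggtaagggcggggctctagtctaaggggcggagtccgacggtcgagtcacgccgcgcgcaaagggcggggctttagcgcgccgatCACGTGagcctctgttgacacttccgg
Atp6v0a1 (chr11:101010278-101010427, plus strand): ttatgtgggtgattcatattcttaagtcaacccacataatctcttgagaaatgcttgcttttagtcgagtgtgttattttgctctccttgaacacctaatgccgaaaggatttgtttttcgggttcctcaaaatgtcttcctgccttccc
In Atp6v0b the core occurs at 36 and again at 18 bases before the start. In Atp6v0d1 it straddles the start, and in Atp6v0e it covers bases 4 to 9 of the transcript. The Atp6v0a1 window belongs to a start inside the gene, downstream of its first listed base, so it says nothing of the gene's other starts. The median GC content was 59.0% over the 13 windows and 52.67% over all windows. The 10 genes lie on 8 chromosomes, with Atp6ap1 and Atp6ap2 on X and Atp6v0c and Atp6v0e on chromosome 17, so they do not form a cluster.

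As a check of the labels, Lamtor1 read 271 in KO against 1058 in WT on the array with KO in Cy5 and 279 against 1063 on the other, in arbitrary units of normalized intensity. Its log2 ratio was −1.95 ± 0.03. The deleted part of the gene is not given, so whether the probe lies inside it is unknown. The KO readings were still well above background on both arrays. All 12 T cell markers were measured, with a median log2 ratio of −0.14, and Cd4 (−1.18) and Cd5 (−1.12) were called lower by the rule of size given next. Among measured genes 2.46% were at least 2-fold higher in KO on both arrays and 6.88% at least 2-fold lower, which is the rule of size used below for calling a gene higher or lower.

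**Figure D1:**
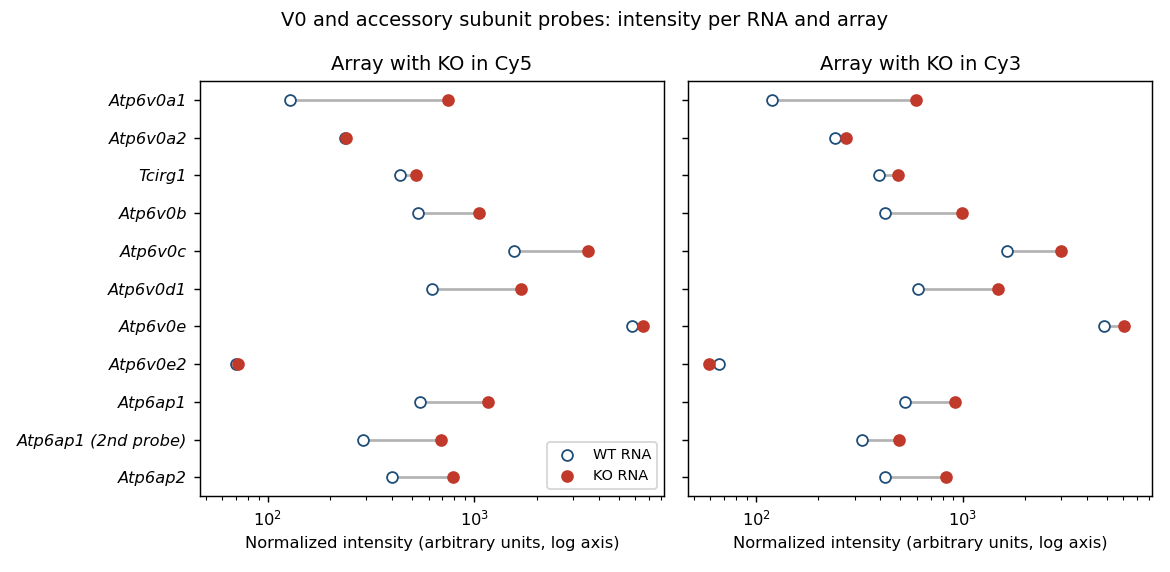
Normalized intensity of each probe in arbitrary units on a log axis, in the KO RNA (filled) and the WT RNA (open), with 1 panel per array. The gap between the RNAs is widest for Atp6v0a1 on both arrays, at 743 against 128 and 593 against 119.5, and narrow for Atp6v0a2 on both, at 238 against 236 and 271 against 241; Atp6v0e2 was not above background.

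The V0 and accessory genes leaned toward higher levels in the KO extract. Of the 9 measured genes 2, Atp6v0a1 and Atp6v0d1, were at least 2-fold higher on both arrays and 0 were at least 2-fold lower. All 9 lay above 0 on both arrays, where 38.6% of measured genes did, and 0 lay below 0 on both, where 44.3% did. Without background subtraction, or with the scanner software's processed signals, 8 of the 9 lay above 0 on both arrays. The shares of 38.6% and 44.3% hold for the setting used and were not counted under the other settings. The median log2 ratio over the 9 was 0.98, against −0.02 over all measured genes. On the single arrays this median was 0.98 (KO in Cy5) and 0.87 (KO in Cy3). With median centring in place of loess, which left the median of all genes at −0.37, the ratios of Atp6v0a2, Tcirg1 and Atp6v0e turned to −0.21, −0.13 and −0.35 and 3 of the 9 lay above 0 on both arrays. That setting also lowered the median over the 9 to 0.47 and left Atp6v0a1 as the 1 gene called, whereas the processed signals gave a median of 1.15 and 6 genes called. Of all measured genes, 0.746% were called higher under median centring and 5.83% with the processed signals, against 2.46% in the setting used.

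**Figure D2:**
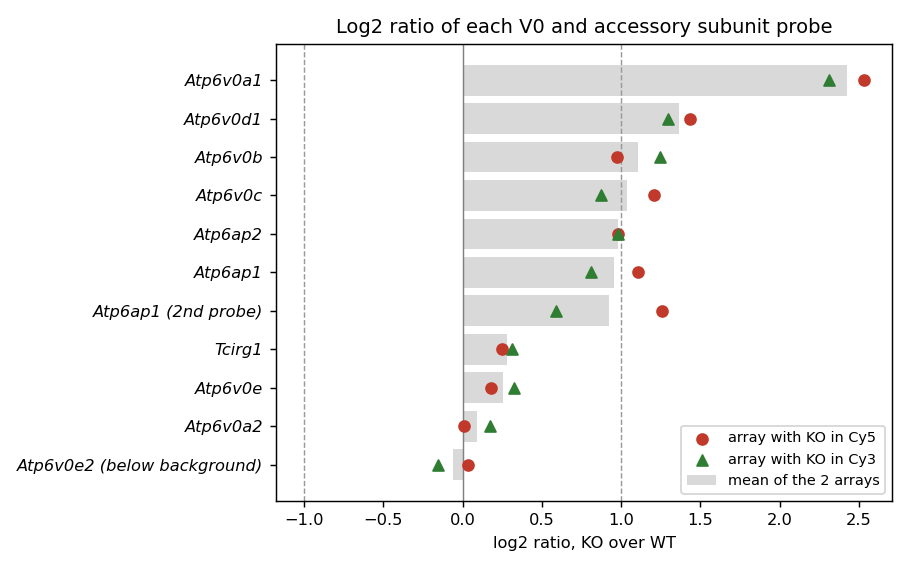
Log2 ratio of KO over WT for each probe, with bars for the mean of the 2 arrays, circles for the array with KO in Cy5 and triangles for the array with KO in Cy3, and dashed lines at a 2-fold difference. Atp6v0a1 stands alone at the top, 5 genes lie between 0.96 and 1.36, and Tcirg1, Atp6v0e and Atp6v0a2 lie between 0.09 and 0.28.

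Subunit a forms the proton half-channels of V0 and is the part whose isoforms set the pump's location. The isoform Atp6v0a1, best known from neurons and synaptic vesicles, read 743 in KO and 128 in WT on the array with KO in Cy5, and 593 and 119.5 on the dye-exchanged array. Both KO readings were far above both WT readings, and the probe (chr11:100924969-100925028, build mm9) was well above background in all of them. Its log2 ratio was 2.42 ± 0.16, or 5.36-fold higher in KO, which placed it at rank 54 of the 14879 measured genes. The WT readings were low, and a normexp offset of 50 draws ratios of dim probes toward 0. The log2 ratio was 3.05 with an offset of 1 and 3.39 with the scanner software's own processed signals.

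Atp6v0a2, the isoform known from the Golgi and endosomes, did not share this difference. It read 238 in KO and 236 in WT on the array with KO in Cy5, and 271 against 241 on the other (chr5:125202359-125202418). The readings of the genotypes overlapped across arrays, and the log2 ratio of 0.09 ± 0.11 was no larger than its technical SD.

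Tcirg1 encodes isoform a3, which serves lysosomes and the bone-resorbing membrane of osteoclasts. It read 519.7 in KO against 437 in WT on the array with KO in Cy5, and 487 against 393 on the other. Both KO readings lay above both WT readings, by little, and the log2 ratio was 0.28 ± 0.04, or 1.21-fold. The Tcirg1 probe spans 133 bases of the genome for its 60 bases (chr19:3896678-3896810), more than the probe's own length, as for a probe across an exon junction. It is shown as the only probe of the set with such a span.
Tcirg1 probe: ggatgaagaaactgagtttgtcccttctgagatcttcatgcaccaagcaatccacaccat

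The isoforms of subunit a therefore stood at unequal ratios in the same pair of extracts. The log2 ratio of Atp6v0a1 exceeded that of Atp6v0a2 by 2.52 on the array with KO in Cy5 and by 2.14 on the dye-exchanged array, a mean of 2.33 ± 0.27. It exceeded that of Tcirg1 by 2.28 and 2.00, a mean of 2.14 ± 0.20. Tcirg1 exceeded Atp6v0a2 by 0.24 and 0.14, a mean of 0.19 ± 0.07. These are differences between ratios, and levels of different probes were not set against each other. The isoform of kidney and inner ear, Atp6v0a4, was not well above background in either RNA on either array.

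The proteolipid ring is built from Atp6v0c (subunit c), the main ring protein, and Atp6v0b (subunit c″). Atp6v0c read 3569 in KO and 1549 in WT on the array with KO in Cy5, and 2994 against 1633 on the other (chr17:24301214-24301273). Its log2 ratios of 1.20 and 0.87 averaged 1.04 ± 0.23, so it passed 2-fold on 1 of the 2 arrays. RefSeq lists pseudogene copies of Atp6v0c, and the probe was not checked against them. Atp6v0b read 1054 against 536 and 995 against 421 (chr4:117557184-117557243). Its ratios were 0.98 and 1.24, a mean of 1.11 ± 0.19, and it too passed 2-fold on 1 array. For both ring genes the KO readings lay above the WT readings on both arrays, and the arrays disagreed on which of them had the higher ratio.

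Atp6v0d1 encodes subunit d, which couples the ring to the central stalk of V1. It read 1689 in KO and 624 in WT on the array with KO in Cy5, and 1486 against 606 on the other (chr8:108048778-108048837). The readings did not overlap, and the log2 ratio was 1.36 ± 0.10, or 2.58-fold, the second highest among these genes. Under median centring it stood at 0.85 and was not called. That setting left the median of all measured genes at −0.37, and relative to this median Atp6v0d1 stood at 1.22. Atp6v0d2, the form of subunit d found in osteoclasts and macrophages, had 2 probes, and neither was well above background in either RNA.

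Subunit e is a small membrane protein of V0. Atp6v0e had bright readings of 6568 in KO and 5791 in WT on the array with KO in Cy5, and 6061 against 4835 on the other (chr17:26836332-26836391). Its log2 ratio was 0.25 ± 0.10, close to that of Tcirg1. The related Atp6v0e2 was not well above background in either RNA, with a mean signal of 54.3 in KO and 55.2 in WT on the array with KO in Cy5 against local backgrounds of 41 and 33, and no ratio is read from it.

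The accessory subunits are single-pass membrane proteins that attach to V0. Atp6ap1, also called Ac45, takes part in pump assembly and had 2 probes on X. The brighter probe (chrX:71549319-71549378) read 1169 in KO against 544 in WT on the array with KO in Cy5 and 922 against 527 on the other, with a log2 ratio of 0.96 ± 0.21. The other probe (chrX:71548822-71548881) lies 5′ of it and had ratios of 1.26 and 0.59, a mean of 0.93 ± 0.47. The probes agreed in direction and mean while the second varied more between the arrays. Its sequence is shown because it is the repeat measurement of a gene within this set.
Atp6ap1 second probe: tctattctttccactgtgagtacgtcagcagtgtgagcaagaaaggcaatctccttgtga

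Atp6ap2, the (pro)renin receptor, read 789.6 in KO against 400.1 in WT on the array with KO in Cy5 and 834 against 422 on the other (chrX:12193624-12193683). The arrays gave nearly the same log2 ratio, 0.981 and 0.982, just under a 2-fold difference on each. Atp6ap1 and Atp6ap2 thus lay beside the ring genes rather than beside Tcirg1 or Atp6v0e.

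**Figure D3:**
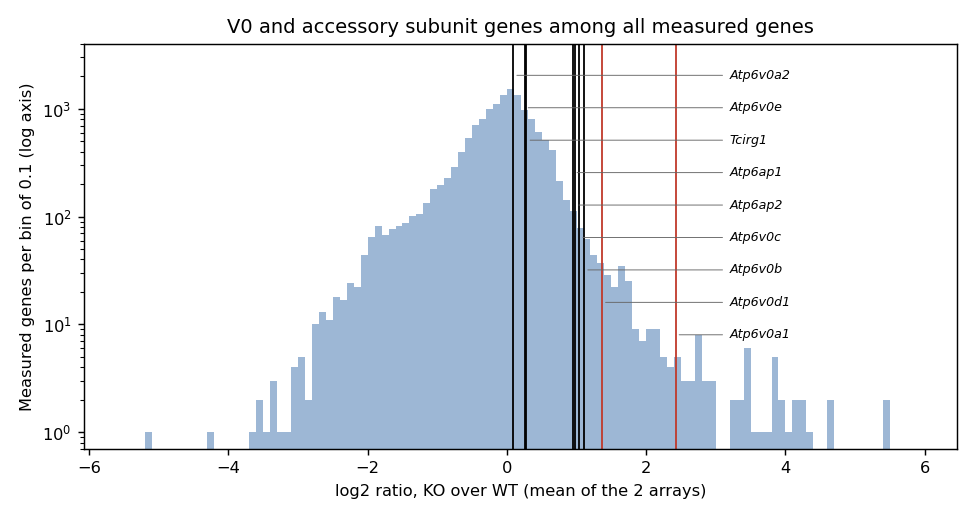
Histogram of the mean log2 ratio of KO over WT for the 14879 measured genes in bins of 0.1, with the number of genes on a log axis. Vertical lines mark the 9 measured V0 and accessory genes, in red the 2 that were at least 2-fold higher on both arrays; Atp6v0a1 stands at 2.42 and Atp6v0a2 at 0.09.

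In order of the mean ratio the genes ran Atp6v0a1, Atp6v0d1, Atp6v0b, Atp6v0c, Atp6ap2, Atp6ap1, Tcirg1, Atp6v0e and Atp6v0a2. Of their 36 pairs, 30 stood in the same order on both arrays. The 6 pairs that changed order were Tcirg1 with Atp6v0e and 5 of the pairs among Atp6v0b, Atp6v0c, Atp6ap2 and Atp6ap1, so the order within these is not settled by the arrays. The lower of the 2 arrays put Atp6ap1 at 0.81, or at 0.59 by its second probe, and the higher put Atp6v0e at 0.33. The split into 6 upper and 3 lower genes was drawn from these same ratios. The gap between them is therefore a description and lends the split no support. Of the 3 genes with CACGTG in the promoter window, Atp6v0d1 stood at 1.36, Atp6v0b at 1.11 and Atp6v0e at 0.25.

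The cytosolic V1 sector was read on the same arrays. Of 13 V1 genes 8 were measured, 0 were at least 2-fold higher or lower on both arrays, 7 lay above 0 and 1 below 0 on both, and the median log2 ratio was 0.53. Whether V0 and V1 differ was not tested. Among 10 measured genes of pump assembly and regulation 0 were called, 4 lay above 0 and 4 below 0 on both arrays, and the median was −0.05. Among 12 measured ion channels and exchangers of endosomes and lysosomes, 1 was higher and 0 lower, with a median of 0.09. The gene called was Clcn7, the lysosomal chloride-proton exchanger, at 1.18 ± 0.21.

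**Figure D4:**
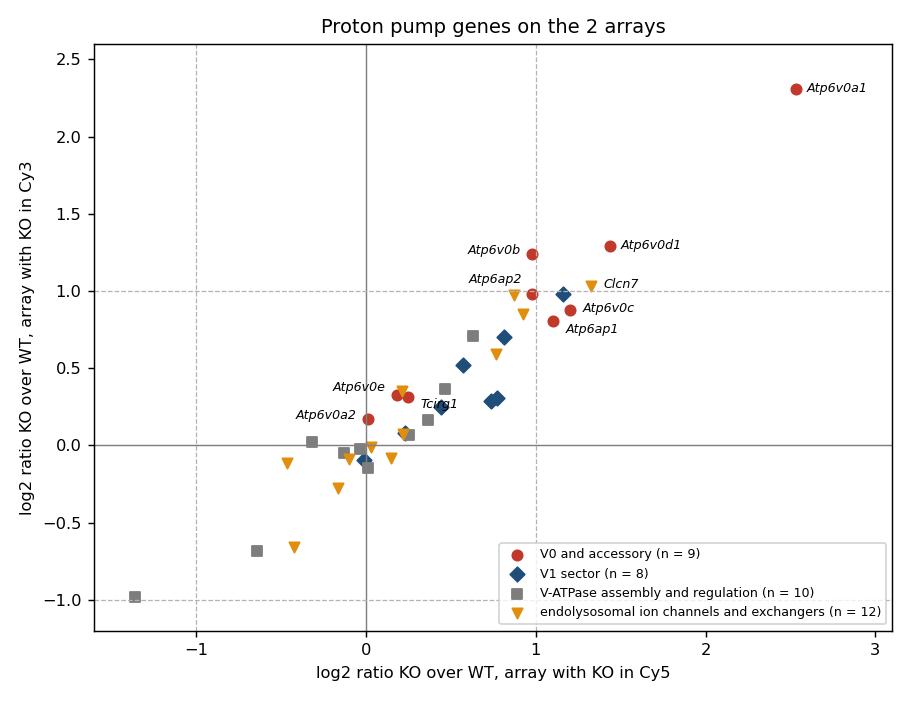
Log2 ratio of KO over WT on the array with KO in Cy5 (horizontal) and in Cy3 (vertical) for V0 and accessory genes, V1 genes, assembly and regulation genes and ion channels, with dashed lines at a 2-fold difference. Atp6v0a1 lies apart at 2.53 and 2.31, Atp6v0d1 and Clcn7 also pass 2-fold on both arrays, and the V1 genes lie between −0.05 and 1.07 in their mean.

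Markers of other cell types were read in the same extracts, since myeloid cells and osteoclasts are rich in V-ATPase. Of 13 myeloid and osteoclast markers 6 were measured, 2 of them, Lyz1 and Lyz2, through the KO RNA alone. The other 4, well above background in both RNAs on at least 1 array, had a median log2 ratio of 0.29. Lyz1 was called higher, at least 2.97-fold. Mpeg1, 1 of the 4, met the criterion through the WT RNA alone and was lower in KO, at −0.66. Thus 5 of the 6 lay above 0 on both arrays and 1 below 0. The summed intensity of the 6 was 16684 and 14328 in KO against 12167 and 10317 in WT. Itgam and Acp5 made up most of these sums, at 9604 and 6338 in KO and 5701 and 5967 in WT on the array with KO in Cy5. The sums also hold Lyz1 and Lyz2, so they do not give the level of a cell type. Cd14, Cd68, Adgre1, Fcgr1, Ctsk, Ocstamp and Dcstamp did not meet the criterion for a measured gene. Of 7 CD8 T and NK cell markers 5 were measured, 1 of them, Klrb1c, through the KO RNA alone. The other 4 had a median of 0.86, and the 5 had sums of 7032 and 6918 in KO against 3454 and 3245 in WT. Most of these sums came from Nkg7, at 5592 in KO and 2827 in WT on the array with KO in Cy5. The genes called higher among these were Klrd1 (1.78) and Klrb1c (at least 2.18-fold), and Ncr1 and Klrk1 were not measured. Of the 5, 4 lay above 0 on both arrays and 1 below 0, Cd8b1 at −0.55, while Cd8a stood at 0.67. Of 7 B cell markers 2 were measured, with a median of 0.47 and sums of 465 and 448 against 362 and 312. The part of these cells in the V0 ratios was not tested, and more RNA per cell cannot be told apart from more cells of a type.

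**Figure D5:**
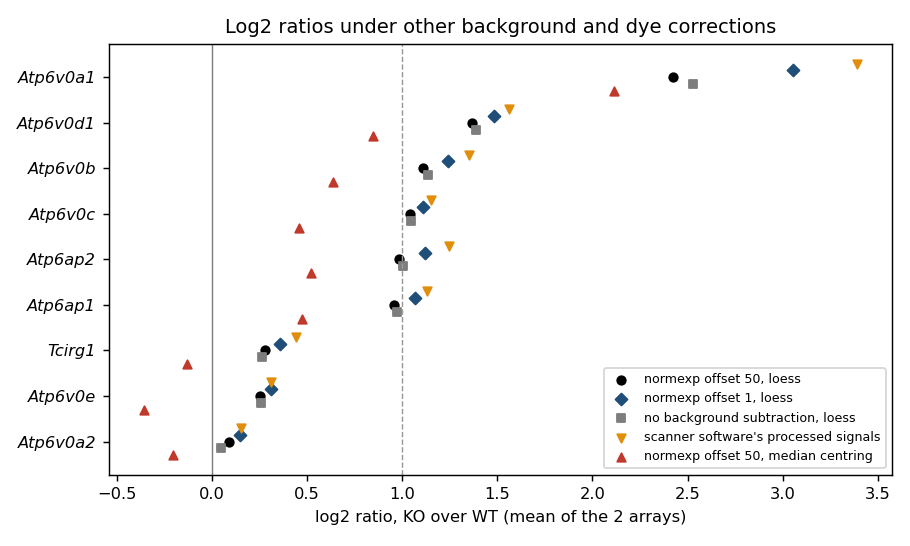
Mean log2 ratio of KO over WT for the 9 measured genes (rows) under 5 ways of correcting background and dye, with a dashed line at a 2-fold difference. Atp6v0a1 stays past 2-fold in all 5, from 2.11 to 3.39. Under median centring every other gene lies below 1, and Atp6v0e, Atp6v0a2 and Tcirg1 lie below 0. The median of all measured genes lies at −0.37 in that setting.

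The number of genes past 2-fold depended on the background and dye corrections. With the scanner software's processed signals 6 genes were at least 2-fold higher on both arrays, Atp6v0b, Atp6v0c, Atp6ap1 and Atp6ap2 besides the first 2. Of all measured genes 5.83% were higher with those signals. With median centring Atp6v0a1 alone was, where 0.746% of all measured genes were. On the array with KO in Cy3 that setting left the median of all measured genes at −0.97, against 0.15 on the other array. Relative to the median of all genes under median centring, Atp6v0d1 stood at 1.22, Atp6v0b at 1.01, Atp6v0c at 0.83 and Atp6v0a2 at 0.17. On the same scale Tcirg1 stood at 0.24 and Atp6v0e at 0.02.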

How the data were processed

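The genes and lists were chosen with earlier results of these data known. Per the file headers, the authors' deposited scanner files come from version 10.7.3.1 of Agilent's Feature Extraction, where the submitters' processing notes name 10.5.1.1. They hold mean and background intensity per spot and channel, a processed intensity, and a log10 ratio of Cy5 over Cy3; the deposited series matrix repeats that log10 ratio. Each array had 43020 non-control spots and 0 saturated ones; 43.7% to 51.7% of spots were well above background in KO and 48.4% to 48.8% in WT. The number of arrays limits the precision.

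In limma 3.58.1 under R 4.3.3, normexp with an offset of 50 corrected the background and loess the dyes within each array; pandas 2.3.3 and matplotlib 3.10.9 served for counts and plots. The steps were run on simulated data whose changed probes were all well above background and balanced in direction. Changes in dim probes and unbalanced changes were not covered. Outlier spots (206 and 214) were left out, dyes turned to KO over WT, and arrays averaged. Of 39423 probes, 26051 were named by accession through RefSeq (GRCm38.p6). The brightest probe stood for a gene; probe positions are mm9. All genes of the set were named, and of the other lists the genes past the rule of size. Atp6v0a4 and Atp6v0d2 were named as further V0 isoforms. In the lists of other cell types, further genes were named to show the limits of the readings. A gene not above background in one RNA is given as at least N-fold: the mean of the brighter RNA is divided by that of a floor, which on each array is the larger of the dim RNA's own signal and the lowest signal well above background, after loess and Aquantile.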

Additional observations from a re-analysis of the deposited data

How the results depend on the processing

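No paired analysis was possible because each genotype had a single extract. Over the 10 alternatives, Atp6v0a1 was at least 2-fold higher in 10 and Atp6v0d1 in 9, and 0 genes of the set were lower. Not every alternative could undo these calls, so the tallies overstate stability. A call needs 2-fold on each array, so either array taken alone must keep it. The series matrix ratios repeat the processed signals. The filter and probe settings given further below could not change either gene. With a normexp offset of 1 the count of higher genes was 4, the median 1.11, and Atp6v0a1 exceeded Atp6v0a2 by 2.90 and Tcirg1 by 2.70. With the processed signals, and equally with the series matrix ratios, these values were 6, 1.15, 3.24 and 2.95. With median centring the count was 1 and the median 0.47, or 0.85 relative to all measured genes. The array with KO in Cy5 alone gave a count of 4, and the array with KO in Cy3 alone a count of 3 and a median of 0.87. Without background subtraction the count was 3, against 2 in the setting used. These counts go with different shares of all measured genes past 2-fold. That share was 4.09% for the offset of 1 and 2.64% without background subtraction, against 2.46% in the setting used. Taken singly, the array where KO carried Cy5 had a share of 3.74%, and its dye-exchanged counterpart 2.88%. Among all measured genes, the processed signals called 868 higher and 1617 lower, median centring 111 and 881, and the setting used 366 and 1024. The cause of these unlike counts was not tested. Leaving dim probes in, requiring signal in both RNAs, or taking the median over probes moved no count and no isoform difference of the set. For the isoforms of subunit a and for Atp6v0d1 these settings could change nothing. Each of those genes had 1 probe, well above background in both RNAs on both arrays. With 1 extract per genotype the spread between animals is unknown, and dim readings, such as those of Atp6v0a1 in WT, depend on the background correction.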
